A study of Mus musculus with 12 samples.

Results

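The BAF complex is the mammalian SWI/SNF chromatin remodeller, a machine of many subunits that uses the energy of ATP to slide or eject nucleosomes and so opens DNA at enhancers and promoters. Each complex holds a single ATPase, either Brg1 (Smarca4) or Brm (Smarca2), on a shared core, and the ARID subunit decides its class: Arid1a or Arid1b in canonical BAF, Arid2 in PBAF, and no ARID subunit in the smaller ncBAF. In lymphocytes, complexes built on Brg1 are known for opening lineage genes during development and activation. The mRNAs of 10 subunits were followed here, chosen by gene symbol: the ATPases Smarca4 and Smarca2, the ARID subunits Arid1a, Arid1b and Arid2, and the core and scaffold subunits Smarcb1, Smarcc1, Smarcc2, Smarcd1 and Smarce1. All 10 were among the 29486 genes listed, and all 10 passed the filter for expressed genes, a fitted count of at least 10 in at least 1 condition, as did 15596 genes in all.

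Splenic B cells of C57BL/6Babr mice were activated in culture with LPS, a bacterial lipopolysaccharide that drives B cells to divide, and total mRNA was sequenced in 3 conditions of 4 libraries each. The LPS group received LPS alone (10 μg/ml, 48 h). The LE group received LPS and then etoposide (20 μM, 4 h), which traps topoisomerase II on cut DNA and so leaves double-strand breaks. The LEKU group had LPS for 47 h and KU55933 (10 μM), an inhibitor of the damage kinase ATM, for 1 h before the same etoposide treatment. No group received KU55933 without etoposide, the labels leave unstated whether LPS cells were harvested before or after the 4 h of etoposide, and no Illumina index was shared between conditions, so that a batch tied to the index and the treatment cannot be told apart.

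The deposited columns totalled, in units of 1000000 counts, 20.7 to 23.9 per library in LPS, 22.5 to 30.6 in LE and 20.4 to 25.1 in LEKU. Within a condition any pair of columns had the same ratio for every gene, to within 2.8e-14 on the log2 scale. A value is therefore 1 fitted mean per condition, scaled to each library, and the table holds no spread between replicates. No test between conditions could be made and no p-value is given. The standard errors printed are counting errors (0.011 to 0.033 for the log2 fold changes of the 10 subunits), which are only a lower limit of the true error. The 6 B cell markers examined summed to 134501 fitted counts in LPS, 79449 in LE and 86569 in LEKU, with Pax5, a transcription factor that maintains B cell identity, at 5508, 1127 and 1167. The part of this difference in the subunit values was not tested. The 5 T cell markers each stayed at or under 3.58 fitted counts, the 6 macrophage markers summed to 414.9, 470.0 and 431.3, and the 6 red blood cell markers to 216.9, 186.4 and 116.5. Within the macrophage sums markers moved in opposite directions, with Cd68 at 103.9, 212.2 and 175.3 and Itgam at 219.0, 129.5 and 114.9. Cdkn1a, the p53 target that encodes the p21 inhibitor of the cell cycle, stood at 409.0 in LPS, 13503 in LE and 10792 in LEKU. In bulk RNA, fewer cells of a type and less RNA per cell cannot be told apart.

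Levels were divided by the union of all annotated exons of a gene, from 4.03 kb (Smarcd1) to 14.3 kb (Smarca2). That length can exceed the mRNA that is expressed, so the order of genes and their range depend on the annotated isoforms. In cells with LPS alone, Smarca4 was the most abundant of the 10 mRNAs per kb of exon, with a fitted count per kb of 949. Arid1a followed at 780, Smarcc2 at 691, Smarcc1 at 604 and Smarce1 at 492. Smarcb1 (321), Arid2 (316), Smarcd1 (306) and Arid1b (284) lay close together, and Smarca2 was lowest at 81.9. The range from the lowest to the highest was 11.6-fold in LPS, 10.3-fold in LE and 8.82-fold in LEKU. Smarca4 stayed first, Arid1b ninth and Smarca2 last in all 3 conditions. Arid1a moved from second in LPS and LE, at 780 and 619 per kb, to 426 in LEKU, behind Smarca4 and also behind Smarcc2 (460) and Smarce1 (450). The summed level of the 10 subunits was 4825 per kb in LPS, 3607 in LE and 3203 in LEKU, and their share of all fitted counts was 0.154%, 0.123% and 0.109%.

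**Figure D1:**
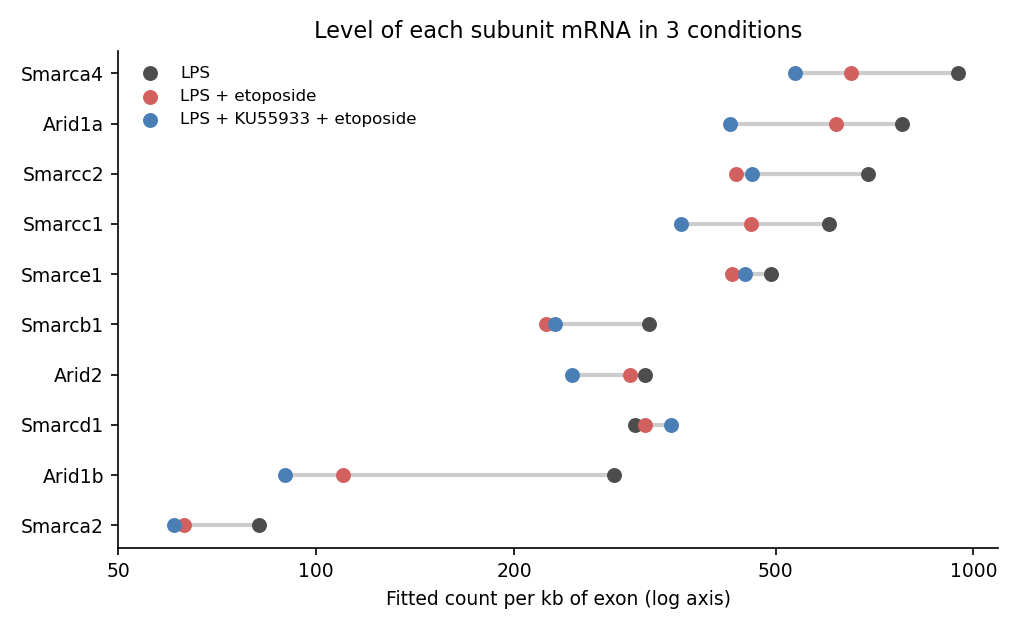
Fitted count per kb of exon (log axis) of the 10 subunit mRNAs, with 1 point for each condition; points carry no error bars because the table holds 1 fitted mean for each condition. The LPS point lies furthest right for every subunit but Smarcd1, though other scalings change the order of LPS and LE for Arid2 and Smarcd1 and of LPS and LEKU for Smarce1, and the gap is widest for Arid1b (284, 110 and 89.5 per kb).

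With etoposide, 9 of the 10 subunit mRNAs were lower than with LPS alone, with a median log2 fold change of -0.388 against -0.002 for all 15596 genes tested; the direction of Arid2 and of Smarcd1 changed with the scaling of libraries. Arid1b and Smarcc2 were at least 1.5-fold lower (0.585 on the log2 scale), which is 2 of 10 against 15.8% of all genes, and no subunit was 1.5-fold higher, against 22.2% of all genes. Just outside that fold lay Smarca4 at -0.545. Over the scalings Smarcc2 ranged from -0.776 to -0.535, Smarca4 from -0.654 to -0.327 and Smarcb1 from -0.627 to -0.403. Each of these crossed the fold, while Arid1b stayed past it. Of the 5439 genes with a mean of at least 1000 fitted counts, a class that holds 9 of the 10 subunits, 60.7% were lower with etoposide. Their median was -0.127, 19.0% were at least 1.5-fold lower and 10.4% at least 1.5-fold higher. The share of subunits at least 1.5-fold lower was thus close to that of other well expressed genes. With KU55933 added to etoposide, 6 subunits were lower and 4 higher than with etoposide alone, with a median of -0.167 against -0.043 for all genes. None passed 1.5-fold in either direction, where 11.8% of all genes were lower and 7.06% higher by that much, or 5.57% and 4.39% of those with a mean of at least 1000, and Arid1a came nearest at -0.539. Against LPS alone, the cells with KU55933 and etoposide had 5 of 10 subunits at least 1.5-fold lower, namely Arid1b, Arid1a, Smarca4, Smarcc1 and Smarcc2, against 15.3% of all genes and 19.7% of those with a mean of at least 1000. None was 1.5-fold higher, against 20.8% of all genes and 9.01% of those with a mean of at least 1000. Smarcc2 sat at this threshold, at -0.585, and with quantile normalization 1 of the 10 was past it. The count was 4 with a pseudocount of 5, with library totals, with size factors from rows with a mean of at least 100, and without replicate 3. The last comparison shares its libraries with the other 2, so that the 3 are not independent.

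**Figure D2:**
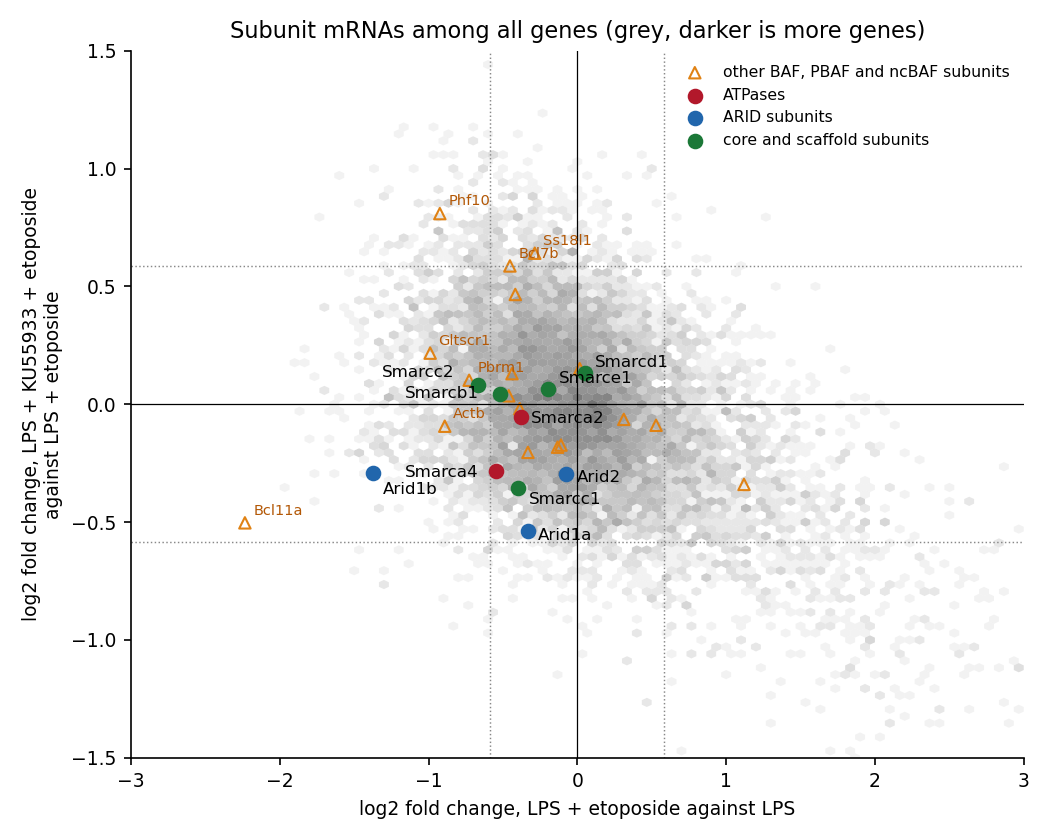
Log2 fold change with etoposide against LPS (horizontal) and with KU55933 and etoposide against etoposide (vertical), for all tested genes (grey), the 10 subunits (filled circles, by role) and 18 further subunits (open triangles); dotted lines mark 1.5-fold. Arid1b (-1.375) stands left of the other 9 subunits, Arid1a (-0.539) is the lowest on the vertical axis, and Smarcb1, Smarcc2, Smarcd1 and Smarce1 lie above 0 on it.

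Promoter sequence is shown for the subunits that were at least 1.5-fold lower in LEKU than in LPS and whose 250 bases before the start hold no annotated exon, so that their base composition can be read beside their values. Of the 10 subunits, 8 had an entry in the RefSeq promoter table (GRCm38.p6). Arid2 and Smarce1 had none. Smarca4 is on the plus strand, at chr9:21615919-21616168, Arid1a on the minus strand, with a window before the GENCODE start (chr4:133756770-133757019) and another before a start 2784 bases further in (chr4:133753986-133754235), and Smarcc2 on the plus strand at chr10:128458986-128459235. Capitals mark GGGCGG on either strand (the GC box, bound by Sp1), and the 4 windows are written 5′ to 3′.
Smarca4: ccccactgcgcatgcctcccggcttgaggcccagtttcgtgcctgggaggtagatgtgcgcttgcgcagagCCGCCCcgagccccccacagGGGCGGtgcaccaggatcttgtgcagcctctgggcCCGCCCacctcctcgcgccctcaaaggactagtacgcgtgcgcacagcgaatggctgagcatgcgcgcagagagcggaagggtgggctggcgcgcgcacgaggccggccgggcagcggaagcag
Arid1a, first start: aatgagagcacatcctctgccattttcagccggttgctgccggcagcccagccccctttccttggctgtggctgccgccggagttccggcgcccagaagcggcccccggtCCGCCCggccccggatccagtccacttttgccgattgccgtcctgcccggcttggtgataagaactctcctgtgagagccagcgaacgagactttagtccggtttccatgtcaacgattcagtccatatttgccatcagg
Arid1a, inner start: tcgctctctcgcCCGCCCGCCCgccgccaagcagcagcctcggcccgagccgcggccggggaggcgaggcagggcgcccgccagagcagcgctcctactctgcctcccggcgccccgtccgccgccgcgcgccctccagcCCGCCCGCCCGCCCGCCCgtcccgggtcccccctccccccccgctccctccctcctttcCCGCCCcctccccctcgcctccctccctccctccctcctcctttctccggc
Smarcc2: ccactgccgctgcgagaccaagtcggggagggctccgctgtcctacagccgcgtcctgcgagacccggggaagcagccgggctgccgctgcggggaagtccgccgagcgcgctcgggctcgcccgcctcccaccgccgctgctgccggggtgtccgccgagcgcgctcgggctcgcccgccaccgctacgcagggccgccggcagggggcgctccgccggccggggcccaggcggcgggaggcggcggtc
The Smarca4 window held 3 GC boxes, the first Arid1a window 1, the inner Arid1a window 7 and that of Smarcc2 0. Overlapping matches were counted, and most of the 7 share bases with a neighbour. At least 1 was found in 32.7% of 32851 promoter windows of the same length. The GC content of these windows was 70.8% (Smarca4), 61.2% and 81.6% (Arid1a, first and inner) and 80.8% (Smarcc2), against a median of 52.4% over all promoters. The observed to expected ratio of CpG was 0.798, 0.784, 0.974 and 0.980 in the same order, against a median of 0.373. The promoters behind these shares and medians were not limited to genes expressed in these cells. The subunit windows not shown, which overlap exons, had a GC content of 59.6% (Smarcb1) to 76.0% (Arid1b). Their CpG ratio was 0.863 (Smarcc1) to 1.03 (Arid1b), and each held at least 1 GC box. Smarcd1, which was not lower, had 71.2% and 0.919. These traits were thus not particular to the subunits shown. Neither CCAAT nor TATAAA was found on either strand in any window of the 8 subunits, where 33.8% and 12.4% of all windows held them. These are letter matches in a fixed window and show no binding.

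The ATPases are the motors of the complex, and Smarca4 (chr9:21616169-21704230, plus strand, GRCm38) was the more abundant of the pair throughout. The deposited columns of Smarca4 held 5057, 5610, 5836 and 5259 counts in LPS, 4077, 4569, 5534 and 4430 in LE, and 3142, 3544, 3796 and 3859 in LEKU. These columns are 1 fitted mean per condition times a library factor. Whether they overlap between conditions therefore says nothing about replicates. After scaling, the fitted count was 6146 in LPS, 4213 in LE and 3465 in LEKU, so that LE was at 0.685 times LPS (log2 fold change -0.545, counting SE 0.0144) and LEKU at 0.823 times LE (-0.282, SE 0.0160). Smarca2 was at 1169, 897.4 and 865.5, with changes of -0.381 (SE 0.0321) and -0.052 (SE 0.0333), the latter with a 95% counting interval of -0.117 to 0.013 that includes 0. The exonic length used was 14.3 kb for Smarca2 and 6.47 kb for Smarca4, and the share of each in the pair rests on these lengths. Smarca2 made up 7.94% of the level per kb of the pair in LPS, 8.82% in LE and 10.2% in LEKU. Such a ratio within a condition does not depend on a scaling by 1 factor per library, but quantile normalization alters it: the log2 change of Smarca2 to Smarca4 with etoposide was 0.164 (SE 0.0351) here and -0.046 with quantile normalization, so no direction is given for it.

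The ARID subunits bind DNA and set the class of the complex, and they held the widest range of changes against LPS alone. For LEKU against LE the core and scaffold subunits ranged more widely, from -0.354 to 0.131. Arid1b (ENSMUSG00000069729), at chr17:4994332-5347656 on the plus strand of GRCm38, had the largest change of the 10 subunits. Its columns held 2949, 3272, 3403 and 3067 counts in LPS, 1337, 1498, 1815 and 1452 in LE, and 1022, 1153, 1235 and 1255 in LEKU. As for Smarca4, the columns of a condition differ by library factors only. The fitted count was 3584, 1381 and 1127, so that LE was at 0.386 times LPS (-1.375, SE 0.0225), and LEKU was at 0.816 times LE (-0.293, SE 0.0281) and 0.315 times LPS (-1.668, SE 0.0247).

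Arid1a (chr4:133679008-133756769, minus strand), the alternative to Arid1b in the same position of the complex, behaved differently in size. Its columns held 7362, 8168, 8496 and 7656 counts in LPS, 6873, 7703, 9330 and 7468 in LE, and 4431, 4997, 5354 and 5442 in LEKU. Here too the columns of a condition differ by library factors only. The fitted count was 8948, 7102 and 4887, with a change of -0.333 (SE 0.0115) with etoposide and a further -0.539 (SE 0.0130) with KU55933, the largest difference of LEKU from LE among the 10 subunits. The etoposide change of Arid1a ranged from -0.442 to -0.013 over the ways of scaling the libraries, and that of Arid1b from -1.484 to -1.249. The ratio of Arid1b to Arid1a per kb was 0.365 in LPS, 0.177 in LE and 0.210 in LEKU, a change of -1.042 on the log2 scale with etoposide (counting SE 0.0252), or -1.236 with quantile normalization. Arid2, the ARID subunit of PBAF, was at 3389, 3221 and 2627, with changes of -0.073 (SE 0.0179) and -0.294 (SE 0.0184). Its etoposide change was higher than 0 with library totals or quantile normalization (up to 0.059), so no direction is given for it. Per kb, the ratio of Arid2 to Arid1a was 0.405, 0.485 and 0.575. The log2 change of this ratio with etoposide was 0.260 (SE 0.0213), and only 0.072 with quantile normalization.

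**Figure D3:**
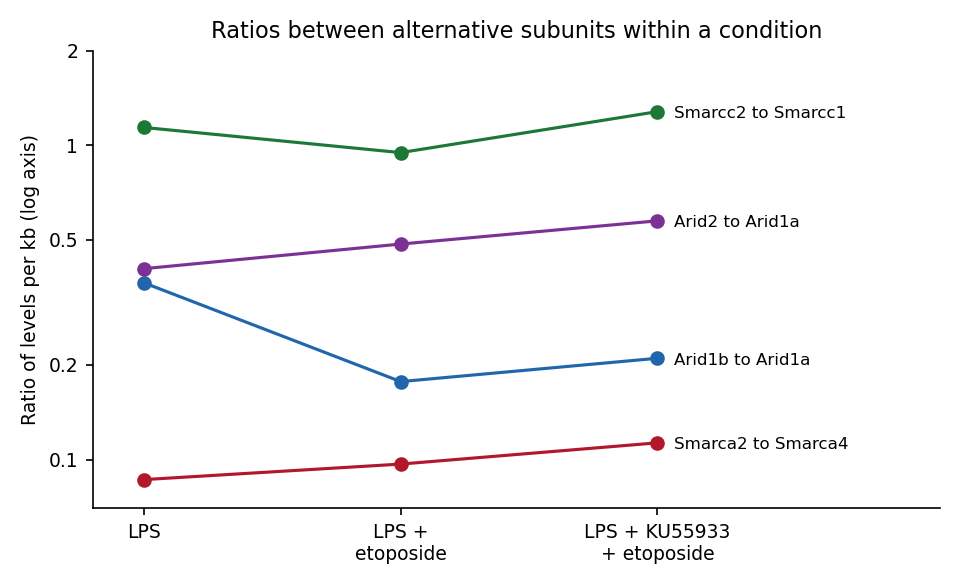
Ratio of the levels per kb of alternative subunits within each condition (log axis), where each point is 1 ratio of fitted means and lines only join the conditions. The ratio of Arid1b to Arid1a drops from 0.365 to 0.177 with etoposide, and that of Smarcc2 to Smarcc1 goes from 1.14 to 0.948 and then 1.28, while the etoposide change of Smarca2 to Smarca4 turns to -0.046 with quantile normalization.

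Among the core subunits, the paired scaffolds Smarcc1 (chr9:110117708-110240178) and Smarcc2 (chr10:128459248-128490482), both on the plus strand, around which the complex assembles, were both lower with etoposide and differed with the inhibitor. Smarcc1 columns held 3894, 4320, 4494 and 4049 counts in LPS, 3481, 3901, 4725 and 3782 in LE, and 2551, 2877, 3082 and 3133 in LEKU. Smarcc2 columns held 3156, 3501, 3642 and 3282 in LPS, 2338, 2621, 3174 and 2540 in LE, and 2318, 2614, 2800 and 2847 in LEKU. For both genes the columns of a condition differ by library factors only, so overlap between conditions says nothing about replicates. Smarcc1 had fitted counts of 4733, 3596 and 2813 and changes of -0.396 (SE 0.0160) with etoposide and -0.354 (SE 0.0176) with KU55933. Smarcc2 had fitted counts of 3836, 2416 and 2556 and changes of -0.667 (SE 0.0187) and 0.081 (SE 0.0198). Their ratio, Smarcc2 to Smarcc1 per kb, thus went from 0.948 in LE to 1.28 in LEKU, a change of 0.436 on the log2 scale (SE 0.0265).

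Smarcb1, the small core subunit that contacts the nucleosome and is lost in rhabdoid tumours, was at 2543, 1776 and 1832 fitted counts, a change of -0.518 (SE 0.0223) with etoposide and 0.045 (SE 0.0232) with KU55933. Smarce1, an HMG-box subunit, was at 3275, 2861 and 2992 (-0.195 and 0.065). Its difference between LEKU and LPS was -0.130 and became higher than 0 (0.081 at most) with library totals or quantile normalization. Smarcd1, which bridges the complex to transcription factors, was at 1232, 1274 and 1396 and was the only subunit of the 10 not lower with etoposide (0.049, counting interval -0.009 to 0.106), although it was lower with TMM factors or size factors from all rows (down to -0.060). Of the 100-base windows of Smarce1 transcripts, 10.99% also occurred in 4 pseudogenes, and 5.313% of those of Smarcd1 occurred in 2 genes on the opposite strand. The strand setting of the counting is not given in the sources used here, so these values are less certain. No window was shared between the 10 subunits.

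The gene spans of the 10 subunits ran from 11.9 kb (Smarcd1) to 353 kb (Arid1b). With etoposide, the median change of genes with a mean of at least 1000 was 0.005 for spans under 10 kb, -0.071 for 10 to 30 kb, -0.208 for 30 to 100 kb and -0.477 for 504 genes of 100 kb and over, of which 43.5% were at least 1.5-fold lower. The 4 subunits of 100 kb and over were at -1.375 (Arid1b, 353 kb), -0.396 (Smarcc1, 122 kb), -0.381 (Smarca2, 173 kb) and -0.073 (Arid2, 117 kb), so that only Arid1b lay under that median, while Arid1b, Smarcc1 and Smarca2 lay under the median of all 1530 tested genes of this span (-0.235). Smarca2 is itself not among the genes with a mean of at least 1000. The 3 of 30 to 100 kb, Smarca4 (88.1 kb), Arid1a (77.8 kb) and Smarcc2 (31.2 kb), all lay under the median of well expressed genes of their span. Of the shorter genes, Smarcb1 (24.8 kb) and Smarce1 (22.0 kb) lay under the median of their class and Smarcd1 above it. Whether span has a part in the values of any subunit was not tested.

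**Figure D4:**
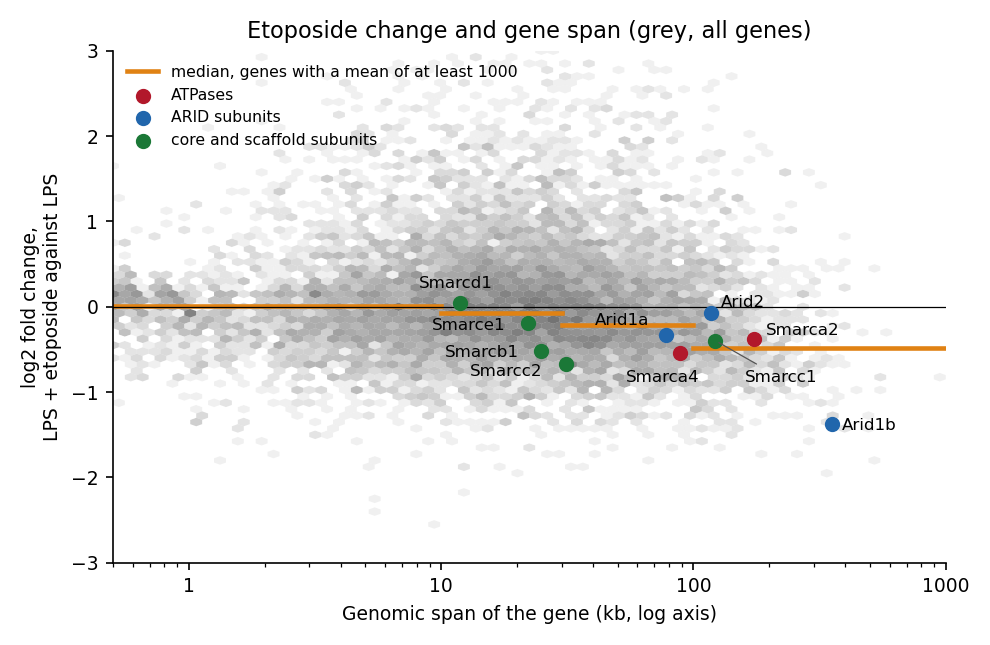
Log2 fold change with etoposide against LPS and genomic span of each gene (kb, log axis), with all annotated tested genes in grey, the 10 subunits as circles by role, and bars for the median of genes with a mean of at least 1000 in 4 classes of span. The medians go from 0.005 under 10 kb to -0.477 at 100 kb and over, and Arid1b (-1.375) is the lowest subunit.

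A further 21 subunits of BAF, PBAF and ncBAF were listed, of which 18 passed the filter and Actl6b, Dpf3 and Bcl11b did not. With etoposide 14 of the 18 were lower, 5 of them by at least 1.5-fold, with a median of -0.402. That is 77.8% lower and 27.8% past the fold, where 50.1% and 15.8% of all genes were, and 60.7% and 19.0% of those with a mean of at least 1000. Bcl11a, a zinc finger subunit needed for B cell development, had the largest change, with fitted counts of 6228 in LPS, 1323 in LE and 933.1 in LEKU (-2.234, SE 0.0212, and -0.503 with KU55933). Actb, the actin subunit and also the main cytoskeletal actin, was at 74753, 40320 and 37813 (-0.891). Gltscr1, which defines ncBAF, was at 2277, 1146 and 1333 (-0.989), and Pbrm1, the polybromo subunit of PBAF, at 4838, 2923 and 3138 (-0.727). Phf10, also of PBAF, was at 2878, 1516 and 2658, which is -0.924 with etoposide and 0.809 higher with KU55933, so that LEKU was near LPS (-0.115). The only subunit at least 1.5-fold higher with etoposide was Dpf1, at 9.905, 22.70 and 17.73 fitted counts, a low level. That is 5.56% of the 18, against 22.2% of all genes and 10.4% of those with a mean of at least 1000.

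KU55933 with etoposide left 3 of these 18 mRNAs at least 1.5-fold higher than etoposide alone and none lower by that fold, with a median of 0.009, where 7.06% of all genes were higher and 11.8% lower (4.39% and 5.57% of those with a mean of at least 1000). Besides Phf10 they were Ss18l1, at 273.0, 223.6 and 349.2 (0.641, SE 0.0596), and Bcl7b, at 751.2, 548.6 and 824.6 (0.587, SE 0.0383, at the threshold of 0.585), both accessory subunits of BAF. Against LPS, 4 of the 18 were at least 1.5-fold lower with KU55933 and etoposide (22.2%, against 15.3% of all genes) and 1 higher (5.56%, against 20.8%). In that comparison 19.7% of genes with a mean of at least 1000 were lower by that fold and 9.01% higher. Of 35 expressed genes of the ISWI, CHD and NuRD, and INO80 remodellers, 6 were 1.5-fold lower with etoposide and 2 higher (median -0.181), and 9 were lower and 2 higher with KU55933 and etoposide against LPS (median -0.275), beside medians of -0.388 and -0.529 for the 10 BAF subunits. The 6 lower with etoposide are 17.1% of the list, close to the 15.8% of all genes, and the 9 lower are 25.7%, against 15.3% of all genes and 19.7% of those with a mean of at least 1000. The 2 higher are 5.71% in each comparison, against 22.2% and 20.8% of all genes. Of genes with a mean of at least 1000, 10.4% and 9.01% were higher. Among these the largest changes with etoposide were in Mbd3 of NuRD (-1.169) and Baz1a of the ISWI complexes (-1.080) downwards and in Ino80d (0.878) upwards. Ruvbl1 (-0.776), Mta3 (-0.685), Chd3 (-0.628), Baz2b (-0.588) and Ino80b (0.623) were the others past the fold.

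**Figure D5:**
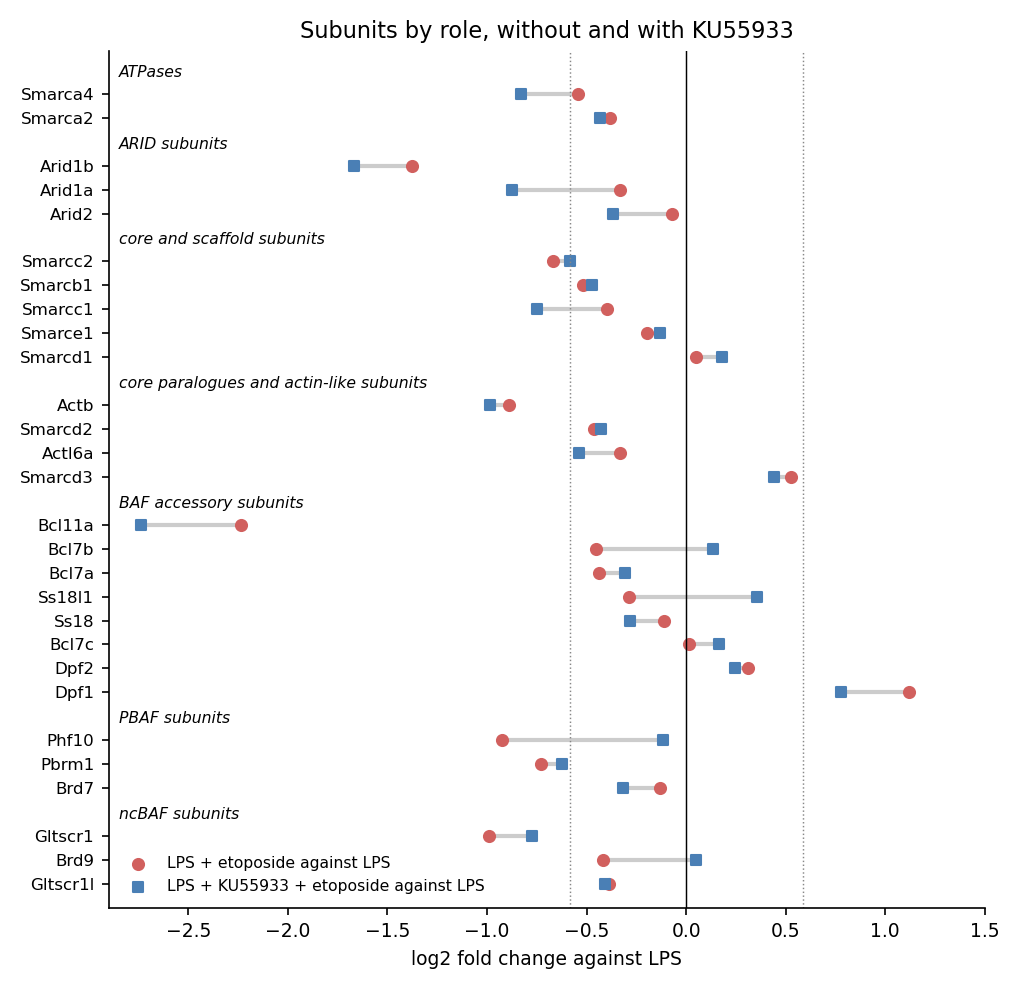
Log2 fold change against LPS of the 10 subunits and 18 further subunits, grouped by role, with etoposide (circles) and with KU55933 and etoposide (squares); dotted lines mark 1.5-fold. Bcl11a (-2.234 and -2.737) and Arid1b (-1.375 and -1.668) lie furthest left, and Phf10 shows the longest distance between its pair of points.

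Arid1b, the subunit with the largest change, was compared with the 10293 genes that had at least 100 fitted counts in every condition, by the distance between their log2 fold changes for LE against LPS and LEKU against LE. The nearest were Gnptab (distance 0.0293), Gm11787 (0.0302) and Wdfy4 (0.0490), and 10 genes lay within 0.1. Gnptab, which encodes a subunit of the enzyme that tags lysosomal proteins, was at 2090, 789.1 and 643.4 fitted counts, and Wdfy4 at 26100, 10253 and 8608. The likeness is over 3 conditions only.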

How the data were processed

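Total mRNA of mouse splenic B cells was sequenced by the authors (TruSeq stranded libraries, 100-base single reads), mapped with TopHat2 2.0.12, counted with HTSeq on Ensembl genes of GRCm38 and fitted with DESeq2 1.6.3; cutadapt 1.2.1 and Trim Galore are also named in their processing notes. The values the authors deposited are a signal per gene in 12 libraries, normalized counts that proved to be a fitted condition mean scaled to each library. The authors' 3 comparison tables (mean, log2 fold change, standard error, Wald statistic, p-value and adjusted p-value) were not used. The authors' version of DESeq2 moderated fold changes by default, which can also have drawn the fitted means together.

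From the table, size factors were computed by the median of ratios on rows with a mean of at least 10, and log2 fold changes with a pseudocount of 1 (Python 3.11.15, numpy 2.4.6, pandas 2.3.3). The planned test with limma needs values per replicate and was not run. Counting errors were taken from the summed columns, and intervals are at the 95% level and cover counting error only. Levels were divided by exonic length in GENCODE M21, the union of the exons of all isoforms of a gene. This annotation matched 99.5% of tested genes. The functions were tested on simulated data. The members and gene lists were chosen with earlier results of these data known. Named were all 10 subunits, other subunits and remodellers past 1.5-fold in LE against LPS or LEKU against LE with at least 100 counts in 1 condition, and the 3 genes nearest to the subunit with the largest etoposide change. Dpf1 was named after its values were seen. The alternatives tried were other scalings, pseudocounts, filters, folds, spans and left-out libraries; size factors from all rows or from rows with a mean of at least 100 were added after seeing the data.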

Additional observations from a re-analysis of the deposited data

How the results depend on the processing

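Over 16 settings, 612 values were recomputed, but these include counts, and medians under the threshold, which hold no called fold change to reverse. The 0 reversals thus concern only subunit fold changes past 1.5-fold, and a fall under the threshold was not a reversal. Smarca4 for LEKU against LPS, for example, went from -0.827 to -0.535 with quantile normalization. Of 330 fold changes of the subunits, 56 moved by over 0.1, all with another scaling. The 330 also hold values with another pseudocount or without 1 replicate, of which none moved that far. Values under the threshold changed sign for Arid2 and Smarcd1 (LE against LPS) and Smarce1 (LEKU against LPS), with the scaling. Without 1 replicate no value of a subunit moved by more than 0.0022 on the log2 scale, which follows from the fitted columns and says nothing about replicates. No paired analysis was possible because the columns hold fitted means and no replicate values. The depth limits the counting error, and the table of normalized counts does not hold the replicate error.

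For LE against LPS, 1 subunit was at least 1.5-fold lower with library totals, 4 with TMM factors, 1 with quantile normalization and 4 with size factors from all rows, and the median of the 10 was -0.273, -0.497, -0.274 and -0.492. The median of all genes was 0.114 with library totals, -0.113 with TMM factors and -0.107 with size factors from all rows, shifts of 0.116, -0.110 and -0.105. For LEKU against LPS, 1 subunit was past the fold with quantile normalization, the median of the 10 was -0.365 with library totals and -0.401 with quantile normalization, and that of all genes was 0.196 with library totals, a shift of 0.165.

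With a threshold of a 25% excess of one condition over the other, 7 subunits were lower for LE against LPS (28.7% of all genes), 2 for LEKU against LE (24.1%) and 8 for LEKU against LPS (27.8%), and at 2-fold 1 for LE against LPS (5.78%) and 1 for LEKU against LPS (5.84%). At the 25% threshold, 4470, 3759 and 4330 genes were lower in these comparisons, and 2715 and 4922 were higher in the last pair. At 2-fold, 902, 726 and 911 were lower, and 2241, 271 and 1763 higher. With a minimum count of 50, 2221 genes were higher for LE against LPS, 1182 lower for LEKU against LE and 2148 higher for LEKU against LPS. Within the range of spans of the subunits, where fewer genes were tested, 1518, 1159 and 1521 genes were lower and 2127, 591 and 1955 higher. The cause of the moves with the scaling was not tested.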
